A study of Mus musculus with 4 samples.

Results

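The genes described here are 50 genes of mitosis, chosen by name: every row of the deposited expression table whose gene name was on a list of mitotic regulators and machinery. All 50 were found among the 54532 genes of the table, each with 1 row. All 50 also passed the filter on low values, a mean of at least 1 FPKM over the 4 libraries, which left 12166 genes for testing. FPKM stands for fragments per kilobase of gene, scaled to the size of the library, so levels can be compared between genes on this scale.

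The libraries came from wild-type (WT) mouse spleen CD4+ T cells, started as naive cells and cultured for 3 days under T follicular helper (Tfh) conditions. Tfh cells are the T helper cells that support B cells. The DMF group held 2 libraries of cultures with dimethyl fumarate, a fumaric acid ester known to activate the transcription factor Nrf2. The control group held 2 libraries of cultures without it. No dose is given in the labels, and nothing there says that the replicates came from separate mice or cultures, so each p-value measures only the spread between these libraries, which may be technical. The series title links DMF to chronic graft-versus-host disease and Tfh differentiation, and the comparison here asks how transcripts for cell division stood in cells under Tfh conditions with DMF.

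Naive T cells are quiescent and divide rapidly once activated, so mitotic transcripts are abundant in T cell cultures in their first days. These genes are switched on late in the cell cycle, mainly by the transcription factor FOXM1 and the MuvB complex, which bind a short promoter element called the cell cycle genes homology region (CHR). Cyclin A and cyclin B with CDK1 start mitosis, polo and Aurora kinases build the spindle, condensin packs the chromosomes, and kinesins move and align them. The spindle checkpoint holds the anaphase-promoting complex until every kinetochore is attached, after which securin and cyclin B are destroyed and separase parts the sister chromatids.

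In both DMF libraries, 27 of the 50 mitosis genes were above each control, and 1 gene, Pttg1, was below each. Over all tested genes these shares were 26.4% above and 26.8% below. The median difference, DMF minus control, was 0.35 on the log2(FPKM + 1) scale over the 50 genes, against -0.01 over all tested genes, and 42 of the 50 differences were positive, as were 48.9% of all. The genes above both controls included 8 of 11 kinesins, 4 of 5 condensin subunits and 4 of 4 genes of spindle assembly and cytokinesis. Fewer of the cyclin and CDK genes (2 of 6), the mitotic kinases (1 of 4) and the kinetochore and centromere genes (1 of 7) were above both. No single gene passed: limma called 0 of the 50 at an adjusted p under 0.05, with 0.0% called over all tested genes. At an unadjusted p under 0.05 there were 8 of the 50, all higher in DMF (Bub1, Ncapg, Kif11, Kif18b, Kif23, Ect2, Plk4 and Kif15), against 9.45% of all tested genes in either direction and 3.14% in that direction. The cultures are bulk samples, in which a larger share of dividing cells and more mitotic RNA per dividing cell cannot be told apart.

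The controls differed from each other more than the DMF libraries did. Over the 12166 tested genes the log2 difference between the controls had an SD of 0.745, against 0.316 between the DMF libraries, and the libraries held 15900118 to 17516953 reads as worked out from the FPKM values. Within the mitosis genes the DMF libraries differed by a median of 0.06 and at most by 0.33, while the controls differed by a median of 0.42 and by up to 1.28. In 46 of the 50 genes the controls were further apart than the DMF libraries. Against control replicate 1 alone the DMF libraries were both above in 43 genes and both below in 3 (Pttg1, Top2a and Cenpf), where all tested genes gave 43.4% and 39.6%. Against control replicate 2 alone they were both above in 30 genes and both below in 15, where all tested genes gave 43.6% and 49.0%. With control replicate 1 left out, limma called 32 of the 50, 25 higher and 7 lower in DMF, beside 61.0% of all tested genes, 27.6% higher and 33.4% lower. With control replicate 2 left out it called 2 of the 50, Ccnb1 and Mki67, both higher, beside 8.28% of all tested genes and 2.77% higher.

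The summed level of the 50 genes was 844 and 846 FPKM in the DMF libraries and 711 and 710 FPKM in the controls, a ratio of 1.19 between the group means. A share of reads weights long genes more and is taken over read totals. By this measure the 50 genes took 0.469% and 0.466% in the DMF libraries, against 0.383% and 0.286% in the controls. FPKM instead imply a library size, 0.876 times the read total in control replicate 2 and 1.03 to 1.07 times elsewhere. Both measures separated the groups, and an exact permutation test of each gave a two-sided p of 0.333, the smallest that 2 against 2 libraries allow. Of the 27 genes above both controls, 14 had a difference over 1.5 times as large with both controls as without control replicate 2, such as Smc2 (0.74 and 0.31), Foxm1 (0.42 and 0.11) and Prc1 (0.4 and 0.14). Each gene was read often enough to be counted well, with 100 reads for the least covered value (Kif18a in control replicate 2) and 9412 for the most covered (Top2a in control replicate 1).

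RefSeq promoter windows (GRCm38.p6, 250 bases before to 50 after the start) were on hand for 41 of the 50 genes, and 32 of the 41 (78.0%) held a CHR, searched as TTTGAA or TTCGAA on both strands, against 21.7% of the 27025 genes with a window. A CCAAT box, searched as CCAAT on both strands and the binding site of the factor NF-Y, was in 29 of the 41 (70.7%), against 41.1% of all genes. Both elements together were in 27 of the 41 (65.9%), against 8.61%. CHR letters were found in 18 of the 21 windows of genes above both controls with DMF, and in 14 of the 20 other windows. A match is a stretch of letters and not a bound site. The 120 bases before the start are shown for 6 genes, to set promoters of genes above both controls (Ncapg, Kif11, Mki67, Plk4) beside those of genes that were not (Cdc20, Cdk1), with CHR and CCAAT letters, or their reverse complements TTCAAA and ATTGG, in capitals.
Ncapg, chr5:45669805-45669924, + strand: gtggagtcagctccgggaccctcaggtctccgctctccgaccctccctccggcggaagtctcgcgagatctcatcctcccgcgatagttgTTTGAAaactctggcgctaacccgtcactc
Kif11, chr19:37376262-37376381, + strand: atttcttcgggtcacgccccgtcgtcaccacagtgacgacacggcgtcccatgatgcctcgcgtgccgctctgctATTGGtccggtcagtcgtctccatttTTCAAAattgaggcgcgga
Mki67, chr7:135716380-135716499, - strand: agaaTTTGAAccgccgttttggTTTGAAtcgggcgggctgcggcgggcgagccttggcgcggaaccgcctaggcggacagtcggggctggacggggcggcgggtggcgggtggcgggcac
Plk4, chr3:40799831-40799950, + strand: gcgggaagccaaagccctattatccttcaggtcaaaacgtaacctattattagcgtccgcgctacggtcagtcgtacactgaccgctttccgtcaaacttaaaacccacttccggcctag
Cdc20, chr4:118437344-118437463, - strand: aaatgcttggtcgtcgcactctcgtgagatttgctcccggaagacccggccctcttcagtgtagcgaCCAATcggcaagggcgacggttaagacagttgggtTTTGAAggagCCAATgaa
Cdk1, chr10:69352913-69353032, - strand: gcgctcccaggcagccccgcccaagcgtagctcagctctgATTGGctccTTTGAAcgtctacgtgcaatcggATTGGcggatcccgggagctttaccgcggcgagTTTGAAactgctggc
Kif11, Cdc20 and Cdk1 hold both elements here, and neither was found in the whole Plk4 window. Outside the printed bases, CCAAT letters or their reverse complement lie at -176 in Ncapg and at -188, -166 and -141 in Mki67. The CHR of Kif11 starts 19 bases before the start and that of Ncapg 30 bases before it, at -19 and -30 relative to it.

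**Figure D1:**
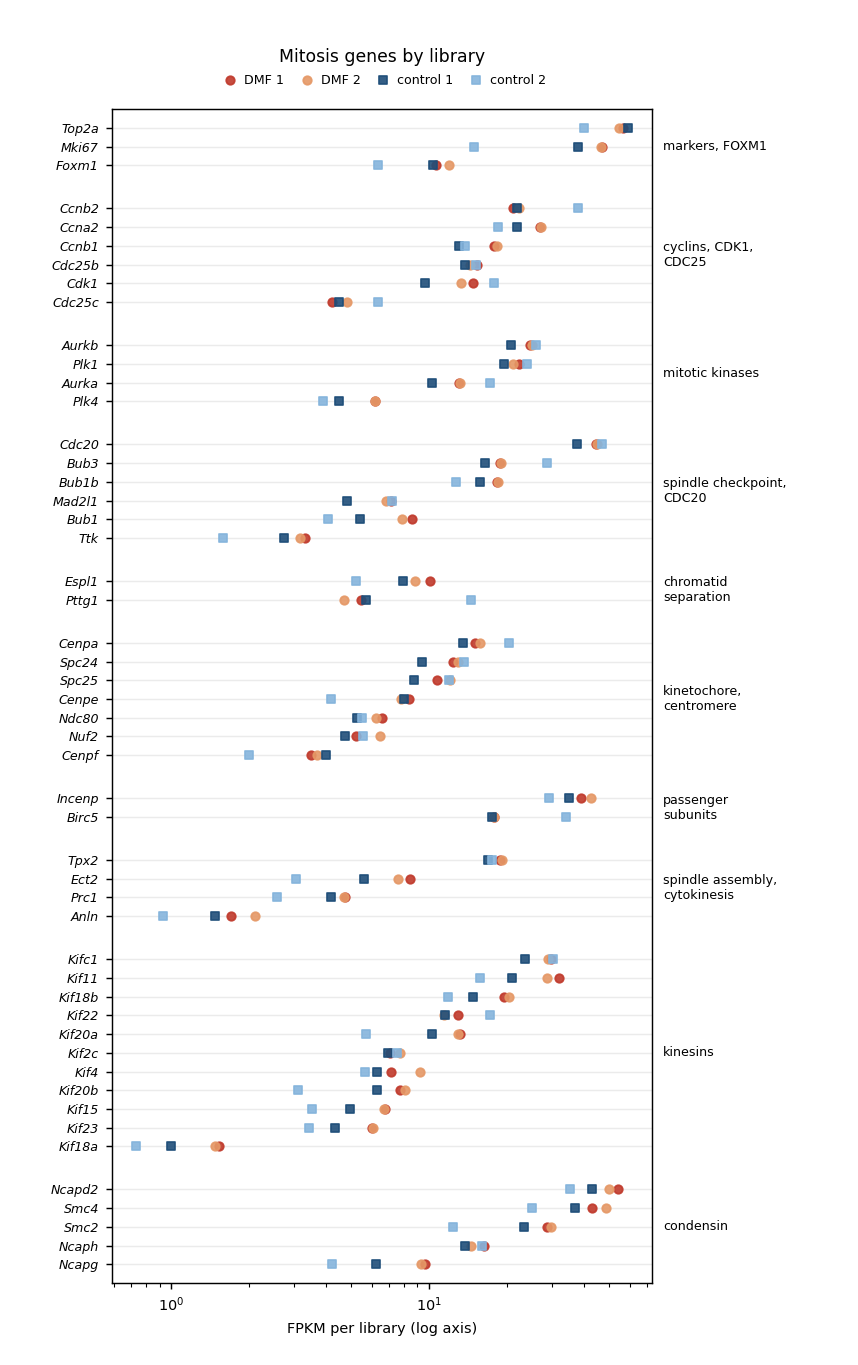
FPKM of each of the 50 mitosis genes (rows, grouped by role) in each library on a log axis, with circles for DMF 1 and 2 and squares for control 1 and 2. The DMF circles lie close together, while control replicate 2 lies left of control replicate 1 in 27 genes and right of it in 23.

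Mki67, which encodes the proliferation marker Ki-67, a coat of mitotic chromosomes, was at 46.8 and 46.4 FPKM in the DMF libraries and at 37.8 and 14.9 FPKM in the controls. Both DMF values were above both controls, and the controls themselves lay further from each other than control replicate 1 lay from DMF. The difference was 0.94 ± 0.47 in log2(FPKM + 1), the scale of every difference below (SE, 2 libraries a group, limma adjusted p = 0.561), the highest of the 50 genes. Without control replicate 2 it was 0.3, and Mki67 was then 1 of 2 mitosis genes past the threshold (limma adjusted p = 0.048), where 8.28% of all tested genes passed. Mki67 (ENSMUSG00000031004, protein coding) lies at chr7:135689784-135716361 on the minus strand of GRCm38. With a trend by gene length removed, as described further on, its difference was 0.65 ± 0.29 and no longer the highest. Those of Kif20a (0.75), Ect2 (0.73) and Bub1 (0.71) were among the higher ones. Top2a, the topoisomerase that untangles sister chromatids and the gene with the highest mean level of the 50, was at 56.7 and 54.8 FPKM in the DMF libraries, against 58.9 and 39.8 FPKM in the controls. Its DMF values lay between the controls, with a difference of 0.2 ± 0.26. Foxm1, which encodes the transcription factor that drives many of the other genes, was at 10.6 and 11.9 FPKM with DMF, against 10.4 and 6.36 FPKM without. It was above both controls, but above control replicate 1 only by a ratio of 1.09.

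Of the cyclins and their kinase, Ccnb1 and Ccna2 were above both controls and Ccnb2, Cdk1, Cdc25b and Cdc25c were not. This is a share of 33.3%, beside 26.4% of all tested genes. Ccnb1, cyclin B1, the CDK1 partner whose destruction ends mitosis, was at 17.8 and 18.4 FPKM in the DMF libraries and at 13.1 and 13.8 FPKM in the controls. The controls were close to each other here, and the groups did not overlap. The difference was 0.4 ± 0.17 (SE, n = 2 per group, limma adjusted p = 0.548), and without control replicate 2 it was the other mitosis gene past the threshold (limma adjusted p = 0.0462). Ccna2, cyclin A2, which acts from S phase to early mitosis, was at 26.9 and 27.2 FPKM with DMF, against 21.9 and 18.6 FPKM without (0.4 ± 0.18, limma adjusted p = 0.553). Ccnb2, cyclin B2, stood the other way, at 21.1 and 22.3 FPKM in the DMF libraries and 21.9 and 37.8 FPKM in the controls, so the DMF values lay to either side of control replicate 1 and below control replicate 2. The FPKM ratio of Ccnb2 to Ccnb1 was 1.19 and 1.22 in the DMF libraries, against 1.67 and 2.74 in the controls. Their gene lengths differ, at 1531 and 4217 bp, and the controls differed by gene length, as described further on. With that trend removed Ccnb2 had -0.04 ± 0.12 and Ccnb1 0.42 ± 0.11. Without control replicate 2 the differences were -0.01 and 0.44. Cdk1, the mitotic kinase itself, was at 14.8 and 13.3 FPKM with DMF, between the 9.68 and 17.8 FPKM of the controls. The phosphatases that activate it, Cdc25b and Cdc25c, differed by 0.04 ± 0.17 and -0.21 ± 0.23.

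Among the mitotic kinases only Plk4 was separated from both controls, 1 of 4, near the 26.4% of all tested genes. With a trend by gene length removed, as described further on, all 4 were above both controls, where 27.2% of all tested genes were. Plk4, the kinase that starts centriole duplication, was at 6.15 and 6.19 FPKM in the DMF libraries, against 4.46 and 3.86 FPKM in the controls (0.48 ± 0.18, SE, n = 2 per group, limma adjusted p = 0.527). Plk1, the polo kinase of mitotic entry and spindle assembly, was at 22.3 and 21.2 FPKM with DMF, against 19.6 and 23.9 FPKM without, a difference of 0.01 ± 0.19. Aurkb, the Aurora kinase of the chromosomal passenger complex, was at 24.6 and 25 FPKM with DMF, against 20.8 and 26.1 FPKM in the controls. Aurka, the Aurora kinase of the spindle poles, was at 13.1 and 13.2 FPKM with DMF, against 10.3 and 17.2 FPKM. All 3 of these kinases were above control replicate 1 and below control replicate 2 in both DMF libraries.

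The spindle checkpoint genes divided too, with 3 of 6 above both controls, where 26.4% of all tested genes were. Bub1, a checkpoint kinase at the kinetochore (ENSMUSG00000027379, GRCm38 chr2:127801122-127831865, minus strand), had the smallest p of the 50 genes. It was at 8.58 and 7.85 FPKM in the DMF libraries and at 5.38 and 4.04 FPKM in the controls, a ratio of 1.74 and a difference of 0.7 ± 0.2 (SE, n = 2 per group, limma adjusted p = 0.462). Its DMF values exceeded each control, by a ratio of 1.53 over control replicate 1 and 2.03 over control replicate 2. Bub1b, which encodes the BUBR1 part of the checkpoint inhibitor, was at 18.3 and 18.6 FPKM with DMF, against 15.7 and 12.7 FPKM without (0.36 ± 0.19, limma adjusted p = 0.561). Ttk, the MPS1 kinase at the head of the checkpoint, was also above both controls (0.45 ± 0.26). Cdc20, the activator of the anaphase-promoting complex on which the checkpoint acts, was at 44.4 and 44.8 FPKM with DMF, between the 37.4 and 46.7 FPKM of the controls. Bub3 and Mad2l1, further parts of the checkpoint inhibitor, were above control replicate 1, by ratios of 1.15 and 1.45, and below control replicate 2, at 0.66 and 0.962 of its level.

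Pttg1 and Espl1, securin and the separase that it holds back, lay in opposite directions. Pttg1 (ENSMUSG00000020415, GRCm38 chr11:43420250-43426251, minus strand) was at 5.46 and 4.69 FPKM in the DMF libraries and at 5.67 and 14.6 FPKM in the controls. It was the 1 gene below both controls, at 0.895 of control replicate 1 and 0.347 of control replicate 2 (-0.75 ± 0.45, SE, n = 2 per group, limma adjusted p = 0.561). Without control replicate 2 its difference was -0.14. Espl1 was at 10.1 and 8.8 FPKM with DMF, against 7.94 and 5.22 FPKM without (0.48 ± 0.25, limma adjusted p = 0.561). Its difference was 0.22 without control replicate 2. The gene lengths of Pttg1 and Espl1 are 2000 and 8749 bp. With a trend by gene length removed, as described further on, their differences were -0.46 ± 0.28 and 0.24 ± 0.14.

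Of the 7 kinetochore and centromere genes, Ndc80 was the 1 above both controls, a share of 14.3%, where 26.4% of all tested genes were. Ndc80, the microtubule-binding subunit of the kinetochore complex of that name, was at 6.57 and 6.2 FPKM in the DMF libraries, against 5.26 and 5.5 FPKM in the controls (0.21 ± 0.17, SE, n = 2 per group, limma adjusted p = 0.583). Its partners Nuf2, Spc24 and Spc25 had differences of 0.15, 0.15 and 0.14. Their DMF means were at ratios of 1.23, 1.36 and 1.31 over control replicate 1 and of 1.05, 0.931 and 0.948 over control replicate 2. With a trend by gene length removed, as described further on, Ndc80 had 0.07 ± 0.16 and no longer lay above both controls, whereas Spc24 (0.36 ± 0.12) and Spc25 (0.27 ± 0.14) did. Cenpe, a kinesin of the outer kinetochore, was at 8.38 and 7.81 FPKM with DMF, against 8.02 and 4.17 FPKM without (0.41 ± 0.32, limma adjusted p = 0.579), and its difference was 0.01 without control replicate 2. Cenpf, a large kinetochore protein and the longest gene of the 50, was below control replicate 1 at 3.47 and 3.66 against 4 FPKM, and above the 2 FPKM of control replicate 2. Cenpa, the histone H3 variant that marks centromeres, was at 15.1 and 15.8 FPKM with DMF, against 13.6 and 20.4 FPKM. The passenger subunits were split too. Incenp, the scaffold of the complex, was at 39 and 42.4 FPKM with DMF, against 34.8 and 29.1 FPKM without (0.34 ± 0.2, limma adjusted p = 0.561). Birc5, which encodes survivin, was at 17.9 and 17.8 FPKM with DMF, close to the 17.5 FPKM of control replicate 1 and below the 33.9 FPKM of control replicate 2.

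All 4 genes of spindle assembly and cytokinesis were above both controls in both DMF libraries, where 26.4% of all tested genes were. Ect2, the exchange factor that activates RhoA at the division plane, was at 8.43 and 7.61 FPKM in the DMF libraries and at 5.59 and 3.04 FPKM in the controls. Its ratio of 1.86 was the highest of the 50 genes with both controls (0.8 ± 0.29, SE, n = 2 per group, limma adjusted p = 0.523). It was 2.64 over control replicate 2 and 1.43 over control replicate 1. Over control replicate 1, Bub1 (1.53), Ncapg (1.52), Kif18a (1.5), Kif11 (1.45), Cdk1 (1.45) and Mad2l1 (1.45) were higher. Anln, anillin of the contractile ring, was among the lowest in level, at 1.71 and 2.11 FPKM with DMF, against 1.48 and 0.927 FPKM without (0.41 ± 0.25, limma adjusted p = 0.561). Prc1, which bundles microtubules of the central spindle, and Tpx2, an activator of Aurora A, differed by 0.4 ± 0.25 and 0.13 ± 0.17.

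Kinesins were the largest role group, with 8 of the 11 above both controls and none below both, where all tested genes gave 26.4% and 26.8%. Kif11, the motor that pushes the spindle poles apart (ENSMUSG00000012443, GRCm38 chr19:37376403-37421859, plus strand), was at 31.8 and 28.8 FPKM in the DMF libraries, against 20.9 and 15.8 FPKM in the controls. The difference was 0.7 ± 0.22 (SE, n = 2 per group, limma adjusted p = 0.478), a ratio of 1.65. Kif18b, which shortens astral microtubules, was at 19.6 and 20.5 FPKM with DMF, against 14.8 and 11.8 FPKM without (0.56 ± 0.19, limma adjusted p = 0.508). In both genes each DMF value exceeded each control. Kif23 and Kif20a, motors of the central spindle, differed by 0.54 ± 0.19 and 0.69 ± 0.3, and Kif15, which assists Kif11, by 0.58 ± 0.21. Kif20b, Kif4 and Kif18a, the last of which dampens chromosome movement, were also above both controls, with ratios of 1.69, 1.37 and 1.73. The remaining 3, Kif2c, Kif22 and Kifc1, differed by 0.03, -0.2 and 0.13. Reads of Kif20a and Kif4 may be shared with genes on the opposite strand. Of the exon bases of Kif20a 29.3% overlap Cdc23, and of those of Kif4 15.1% overlap Pdzd11. The same holds for genes of other groups, such as Ncapg with Lcorl (13.4%), Cdc25c with Gm3550 (12.7%), Ccna2 with Exosc9 (12.5%) and Prc1 with Rccd1 (11.1%). The sources used here do not say whether counting used the strand.

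Condensin, the ring complex that compacts mitotic chromosomes, had 4 of its 5 listed subunits above both controls, where 26.4% of all tested genes were. Ncapg, a subunit found only in condensin I (ENSMUSG00000015880, GRCm38 chr5:45669919-45700546, plus strand), was at 9.67 and 9.28 FPKM in the DMF libraries and at 6.24 and 4.21 FPKM in the controls. The groups did not overlap, with a ratio of 1.81 and a difference of 0.77 ± 0.23 (SE, n = 2 per group, limma adjusted p = 0.469). Smc2 and Smc4, the ATPase arms shared by both condensins, were at 28.8 and 29.7 FPKM and at 42.7 and 48.6 FPKM with DMF. In the controls Smc2 was at 23.4 and 12.4 FPKM, and Smc4 at 37 and 25.2 FPKM. Ncapd2 was at 53.9 and 50.1 FPKM with DMF, against 42.7 and 35.1 FPKM (0.42 ± 0.2, limma adjusted p = 0.561). Ncaph, the kleisin that closes the ring, was the exception at 16.4 and 14.6 FPKM with DMF, against 13.8 and 16 FPKM without.

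**Figure D2:**
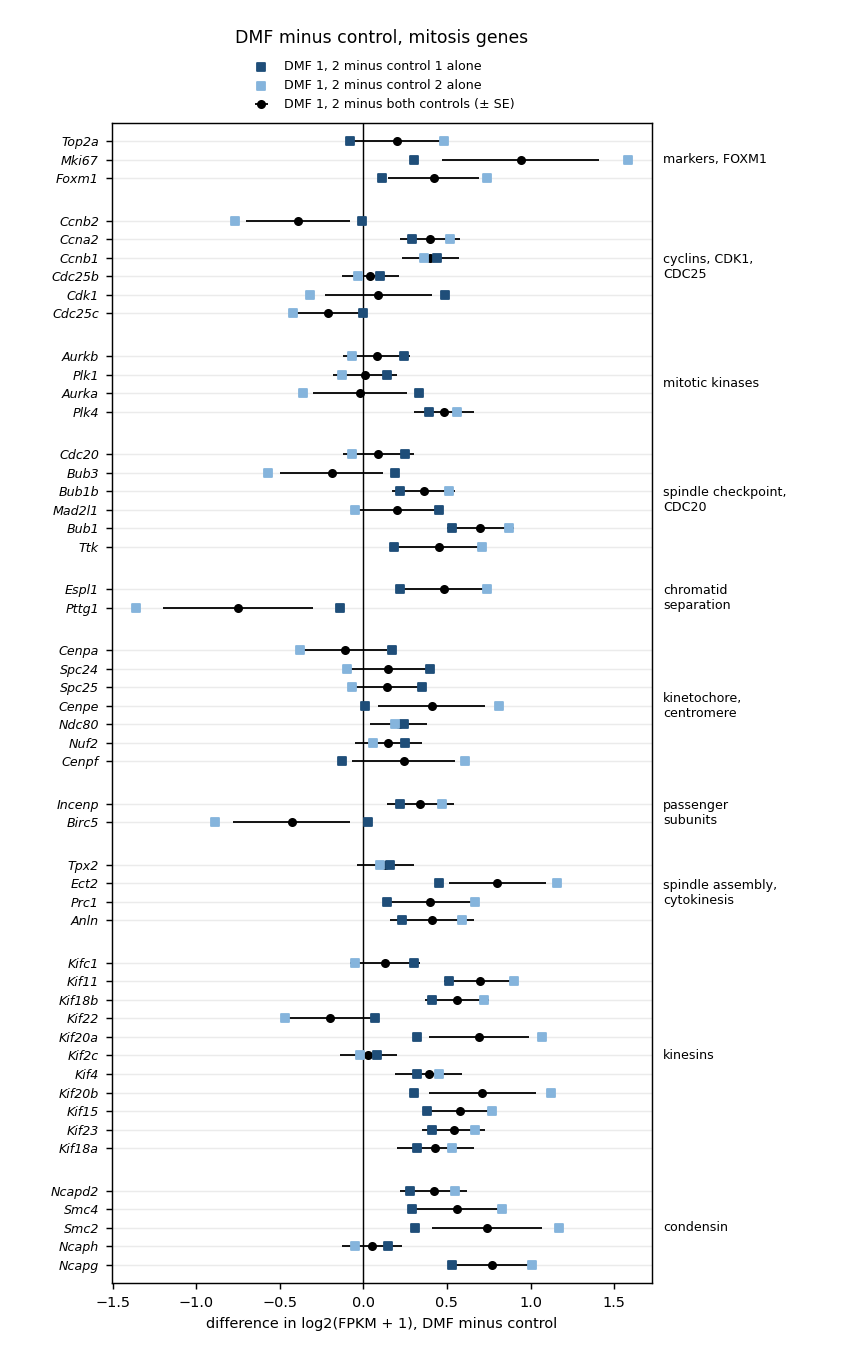
Difference in log2(FPKM + 1), DMF minus control, for each mitosis gene by role, with both controls (black circles, bars are the SE of the limma fit) and against each control alone (dark squares, control 1; light squares, control 2). Dark squares lie between -0.14 and 0.53, and light squares spread from -1.36 to 1.58.

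Where a mitosis gene stood against control replicate 2 went with its length. Over all tested genes, control replicate 2 minus control replicate 1 differed by length, with medians of 0 at lengths of 11 to 579 bp, 0.72 at 580 to 1444 bp and -0.6 at 8933 to 40491 bp. In the 25 shorter mitosis genes, of 1531 to 4919 bp, that median was 0.2, and in the 25 longer ones, of 4934 to 15433 bp, it was -0.4. Across the 50 genes, which share these libraries, length and this difference had a Spearman rho of -0.55, as a description. DMF minus control replicate 2 had a median of -0.05 in the shorter and 0.61 in the longer genes. DMF minus control replicate 1 had medians of 0.22 and 0.29 in the same genes, with a rho of 0.1 with length.

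**Figure D3:**
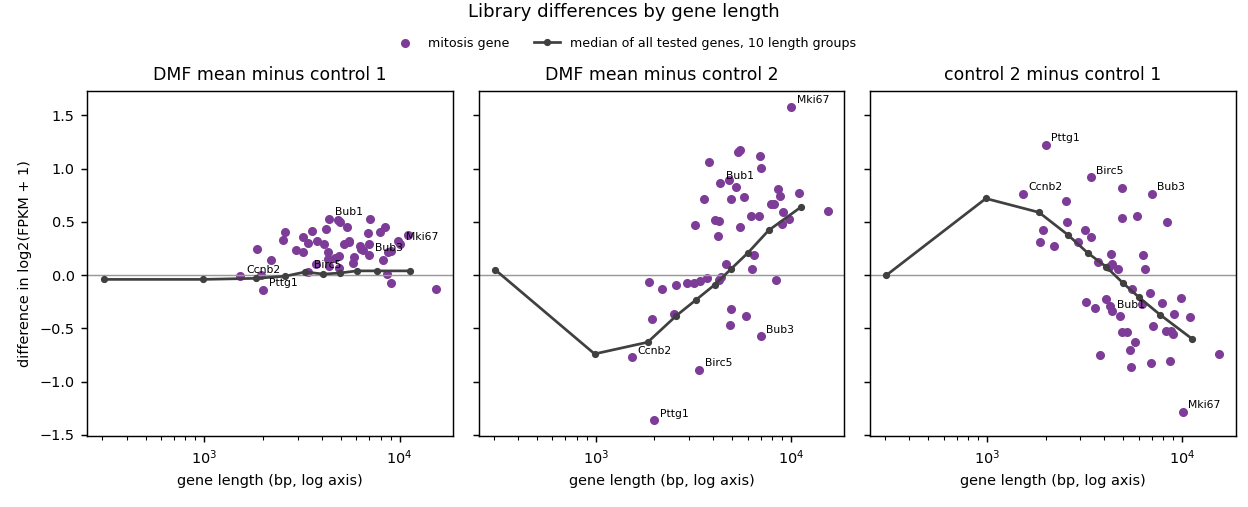
Differences in log2(FPKM + 1) against gene length (log axis) for DMF minus control 1, DMF minus control 2 and control 2 minus control 1, with a purple point per mitosis gene and a line through the medians of all tested genes in 10 length groups. The line is flat in the left panel and crosses 0 in the other panels, and mitosis genes in the left panel lie between -0.14 and 0.53.

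With the length trend of each library removed, 33 of the 50 genes were above both controls with DMF, where all tested genes gave 27.2%, and 2 were below both, Pttg1 and Cenpf, where all tested genes gave 27.1%. The median difference was then 0.25, against 0 over all tested genes, and none of the 50 passed (limma, 0.0247% of all tested genes called). Kif18a and Ndc80 were no longer above both controls. Aurkb, Plk1 and Aurka, which lay between the controls in FPKM, were above both in this form, with differences of 0.24, 0.26 and 0.19. Bub1 (0.71 ± 0.19), Kif11 (0.68 ± 0.17) and Ncapg (0.6 ± 0.14) kept differences within 0.2 of those in FPKM, whereas Kif15 (0.26 ± 0.14) and Kif18a (0.15 ± 0.22), both long genes, had smaller ones. Top2a had -0.05 ± 0.12 and Ccnb2 -0.04 ± 0.12. Reads of control replicate 2 were also scaled apart from the other libraries, since its FPKM imply a library size of 0.876 times its read total, against 1.03 to 1.07 elsewhere. With limma's voom on read totals in place of the authors' scaling, the median of all genes moved to 0.15 and that of the mitosis genes to 0.54, which is 0.39 above it, with 39 of the 50 above both controls against 36.0% of all tested genes.

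Other genes of division were read from lists of further mitosis, regulator and replication genes. Of 63 further mitosis genes tested, 32 were above both controls with DMF and 3 below both, where all tested genes gave 26.4% and 26.8%. Their median was 0.18, and 0 passed. Zwilch, a subunit of the checkpoint complex that recruits dynein to kinetochores, had the smallest p of these, at 9.27 and 8.8 FPKM with DMF, against 5.32 and 3.8 FPKM without (0.86 ± 0.21, SE, n = 2 per group, limma adjusted p = 0.381). Among 11 subunits and partners of the MuvB complex, 4 were above and 1 below. Mybl2, the MYB factor that joins MuvB late in S phase, was at 18.8 and 17.8 FPKM with DMF, against 12.8 and 10.8 FPKM (0.6 ± 0.18, limma adjusted p = 0.476). The 15 genes of the anaphase-promoting complex, its activator Fzr1 among them, lay both ways, with 4 above and 5 below, shares of 26.7% and 33.3% that are near those of all tested genes. Their median was -0.25 with both controls, 0.03 without control replicate 2 and -0.45 without control replicate 1. Anapc2, the cullin-like subunit of the complex, was at 26.2 and 30.6 FPKM with DMF, against 34.7 and 39.4 FPKM without (-0.38 ± 0.2, limma adjusted p = 0.561). Of 15 cohesin and condensin II genes 7 were above and 0 below, with a median of 0.33 that was 0.04 without control replicate 2. Among the 7 was Esco2, the acetyltransferase that locks cohesin in S phase (0.56 ± 0.21, limma adjusted p = 0.532).

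DNA replication genes act earlier in the cycle. Of 40 tested, 27 were above both controls with DMF and 0 below, where all tested genes gave 26.4% and 26.8%, the median was 0.35, and 0 passed. Mcm10, a replication initiation factor, was at 8.06 and 7.74 FPKM with DMF, against 4.8 and 4.26 FPKM without (0.69 ± 0.17, SE, n = 2 per group, limma adjusted p = 0.384). Against control replicate 1 alone all 40 were above, with a median of 0.42 and 22 past the limma threshold, beside a median of 0.25 and 2 of 50 for the mitosis genes, where 43.4% of all tested genes were above and 8.28% passed. Against control replicate 2 alone the order was the other way, with a median of 0.16 for the replication genes, 19 called higher and 8 lower, and of 0.47 for the mitosis genes, 25 called higher and 7 lower, where 61.0% of all tested genes passed. The summed FPKM of the mitosis genes over that of the replication genes was 0.686 and 0.688 in the DMF libraries, inside the 0.767 and 0.64 of the controls, so this ratio did not separate the groups.

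**Figure D4:**
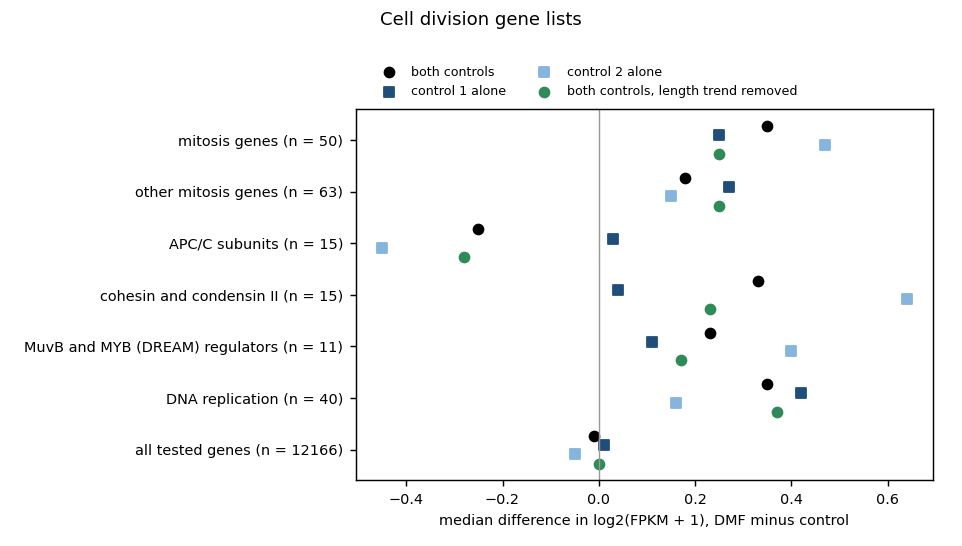
Median difference in log2(FPKM + 1), DMF minus control, over the tested genes of each list and over all tested genes, with both controls, with control 1 or control 2 alone, and with both controls after removal of the length trend. For the mitosis genes the medians are 0.35, 0.25, 0.47 and 0.25, and all tested genes lie between -0.05 and 0.01.

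Any dividing cell expresses mitosis genes, so markers of the cells in the cultures are given beside them. The 8 markers of CD4 T cells, such as Trbc2 and Lck, summed to 1440 and 1380 FPKM in the DMF libraries and to 1580 and 2980 FPKM in the controls, and 6 of the 8 were below both controls, where 26.8% of all tested genes were. In FPKM 7 of the 8 had a negative difference, as with the length trend removed, voom, or either control left out. After quantile normalization 5 of the 8 had a positive difference, with a median of 0.1, 2 above and 3 below. B cell markers, 8 in number and none at 0 in every library, summed to 27.9 and 27.1 FPKM with DMF, against 12.1 and 15.2 FPKM without, and 6 of the 7 tested were above both controls, where 26.4% of all tested genes were. The 7 markers of CD8 T and NK cells summed to 3.04 and 2.96 FPKM with DMF, against 13.2 and 21.7 FPKM, with Ncr1 and Klrb1c at 0 in every library and all 3 tested below both controls. Macrophage and dendritic cell markers summed to 8.6 and 7.03 FPKM with DMF, against 8.1 and 10.1 FPKM. Of the 5 erythroid markers, 4 were below a mean of 1 FPKM, leaving Tfrc, a transferrin receptor that dividing T cells also express. The part of these shifts in the levels of the mitosis genes was not tested.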

How the data were processed

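The authors deposited 1 table of FPKM values per gene, beside each gene's name, position and length, per the file headers. Per the submitters' processing notes, edgeR was used in a role not stated, and the build was mm8. GENCODE M21 (GRCm38) holds 54409 of the gene identifiers, and 98.33% of these have identical positions there, so GRCm38 is used. No aligner, counting program or strandedness is named in the labels or headers.

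The main test was limma 3.58.1 (lmFit, eBayes with a trend) in R 4.3.3 on DMF minus control in log2(FPKM + 1), two-sided, all 4 libraries, no covariate, for genes with a mean of at least 1 FPKM, with Benjamini-Hochberg adjustment over all tested genes and a threshold of 0.05. This scale understates changes of low genes. FPKM times gene length gave whole multiples of 1 step for 100% of values, within 0.01, from which reads were worked out. They sum to 17134385 and 17516953 in DMF replicates 1 and 2 and to 17171199 and 15900118 in control replicates 1 and 2.

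The members and lists were chosen with earlier results of these data known. In each role group the 2 members with the smallest p, and Mki67, Top2a, Ccnb1, Cdk1, Plk1 and Foxm1, were given in every library, and others were added after their values were seen. Of each further list the gene with the smallest p was named. The fits were tested on simulated reads. Alternatives were other pseudocounts (0.1, 0.5), filters, scalings and variance models, removal of a gene length trend (loess, span 0.3), voom, the replicate block and each library left out.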

Additional observations from a re-analysis of the deposited data

How the results depend on the processing

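Of the 15 alternatives, none called a mitosis gene except those that left out a control. Leaving out 1 library moved the mitosis genes past the threshold over 0 to 32, with 2 without control replicate 2 (where 8.28% of all genes passed) and 32, 25 higher and 7 lower, without control replicate 1 (61.0%). With 1 library left out, the mitosis genes above every remaining control numbered 30 to 43, against 27 with all libraries. Those below numbered 2 to 15 against 1, and all genes called ran over 6 to 7420 against 0. Dropping a library can only keep or raise the counts above and below, so their direction was fixed in advance. The shares of all tested genes, 26.4% above and 26.8% below with all libraries, rose too. They were 43.6% and 49.0% without control replicate 1, and 43.4% and 39.6% without control replicate 2. The median over the mitosis genes ran from 0.245 to 0.474 with 1 library left out, and was 0.212 with a mean FPKM of at least 5, which leaves 43 of the 50 genes, and 0.536 with voom. Removing the length trend called 3 genes in all and put 2 mitosis genes below both controls. The deviations of same-numbered libraries had a correlation of -0.0233 over the tested genes. This cannot decide whether the numbers pair the libraries, since each group gives only 1 difference between replicates. The replicate block called 552 genes and 0 mitosis genes. A lone library left in a group is assumed to vary like the other group.

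Some genes changed sign. With the length trend removed Top2a was -0.05, Cdc25c 0.09, Aurka 0.19, Mad2l1 -0.03 and Cenpf -0.17. Aurka was also 0.01 with trimmed mean scaling, 0.05 with quantile normalization and 0.15 with voom, Kif2c was -0.0036 with quantile normalization, and Cenpa was 0.06 with voom. The cause was not tested. With 1 library left out, the differences spanned -0.08 to 0.48 for Top2a, -0.32 to 0.49 for Cdk1, -0.03 to 0.1 for Cdc25b, -0.42 to 0.0035 for Cdc25c, -0.36 to 0.33 for Aurka, -0.07 to 0.24 for Aurkb, -0.13 to 0.14 for Plk1, -0.57 to 0.19 for Bub3, -0.05 to 0.45 for Mad2l1, -0.07 to 0.25 for Cdc20, -0.1 to 0.4 for Spc24, -0.07 to 0.35 for Spc25, -0.38 to 0.17 for Cenpa, -0.13 to 0.61 for Cenpf, -0.89 to 0.03 for Birc5, -0.47 to 0.07 for Kif22, -0.02 to 0.09 for Kif2c, -0.05 to 0.3 for Kifc1 and -0.05 to 0.15 for Ncaph. The 27 genes above both controls kept a positive difference in every alternative that tested them. Their selection fixed this sign for the pseudocounts, filters, variance models, replicate block and libraries left out. Only the scalings, voom and removal of the length trend could have changed it.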
